A study of Mus musculus with 2 samples.

Results

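Lgr5 and the genes that work with it at the R-spondin receptor were followed in sorted stem cells of the mouse small intestine. The set holds 6 genes: the receptor genes Lgr5, Lgr4 and Lgr6, the ubiquitin ligase genes Rnf43 and Znrf3, and the ligand gene Rspo3. They were chosen by their place in the R-spondin receptor and by the difference of Lgr5 on these same 2 arrays, which was already known, so their values are a description. Rows were taken where the platform annotation gave a single gene symbol, which held for 5 of the 6, among 19664 named genes on the array. Rnf43 stood only in a transcript cluster that is also annotated to the long noncoding RNA gene 1110028F11Rik, so that row is given as the shared cluster and counted with neither gene.

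The study set cells of circPan3-/- mice against cells of circPan3+/+ mice, with 1 Affymetrix Clariom D array of each and no replicate. circPan3 is a circular transcript of the Pan3 locus. Mice of both genotypes were 8 weeks old and carried Lgr5GFP-CreERT2, and GFP-positive cells were sorted from the small intestine, so Lgr5 reporter activity was the gate in both groups. How many mice gave each sample, and how the reporter cassette sits in Lgr5, the labels do not state. In the widely used knock-in allele of this kind the reporter is expressed in place of Lgr5 from the tagged copy.

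R-spondins are secreted proteins that strengthen Wnt signalling. Without them, the membrane ligases RNF43 and ZNRF3 mark Frizzled receptors for removal from the cell surface. An R-spondin bridges LGR4, LGR5 or LGR6 to one of these ligases, the ligase is cleared instead, and Frizzled stays at the membrane. In the intestinal crypt Lgr5 marks the stem cells at the base, Lgr4 is expressed more widely, Lgr6 is best known from skin, and Rspo3 comes from stromal cells below the crypt.

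All levels are the authors' RMA signal on a log2 scale, and every difference is circPan3-/- minus circPan3+/+. The median difference over the 14597 named genes whose mean level reached the median of all rows was 0.36, so a difference is best read against 0.36 rather than 0. Below, shares and the median of all named genes are over these 14597. After quantile normalization the shares are over 14608. The 95th percentile of the 5222 negative control rows, used as a limit for dim values, was 5.56 for circPan3-/- and 5.06 for circPan3+/+. On the circPan3-/- array 4.20% of rows shared their exact value with another row, against 69.1% on the circPan3+/+ array, and whether both arrays were processed alike was not tested. With 1 array per genotype no difference has an error or a p-value. Whether fewer cells of a type or less RNA per cell lies behind a level cannot be told apart.

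Lgr5, the stem cell receptor gene, had a signal of 7.02 in circPan3-/- cells and 10.91 in circPan3+/+ cells. That difference of -3.89 is 14.8-fold. Both values lay above the control limits, and neither was shared with another row. Lgr5 was the single one of the 5 genes at least 2-fold lower, where 2.73% of all named genes past the filter were lower by that much. The gene was chosen for this value. The share, its place in the order and the genes of like level are printed beside it with nothing read from them. Among the 14597 named genes whose mean level reached the median of all rows, Lgr5 was number 19 from the lowest difference. Of the 3018 of these above the limit on both arrays it was number 2, and 1.33% of those were at least 2-fold lower. Among the 174 other named genes within 0.5 of its mean level, differences ran from -0.20 at the 5th percentile to 2.27 at the 95th, with a median of 0.57. Only Sprr2b at -1.71, Ctsb at -1.27 and Clca4b at -1.04 were at least 2-fold lower among those 174, or 1.72%, and 34 of them, or 19.5%, were past 2-fold upwards.

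Lgr4, the paralog with the broader crypt expression, differed in the other direction. Its signal was 6.43 in circPan3-/- cells and 4.53 in circPan3+/+ cells. As deposited this difference of 1.90 is 3.73-fold. Because the circPan3+/+ value lay under the control limit, the fold against that limit is at least 2.59-fold higher in circPan3-/- cells. Lgr4 was the single one of the 5 genes at least 2-fold higher, where 9.7% of all named genes were. Among 2799 other genes within 0.5 of its mean level, 33 had a difference as high as that of Lgr4 or higher.

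Lgr6, the third receptor gene, had 3.57 in circPan3-/- cells and 3.36 in circPan3+/+ cells, both under the control limits. Its difference of 0.21 was below the median of all named genes, and it turned to -0.15 after centring on that median, -0.08 after quantile normalization and 0.00 after loess on level. Its circPan3+/+ value stood in 58 rows of the table. At this level of signal no direction could be given for Lgr6.

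**Figure D1:**
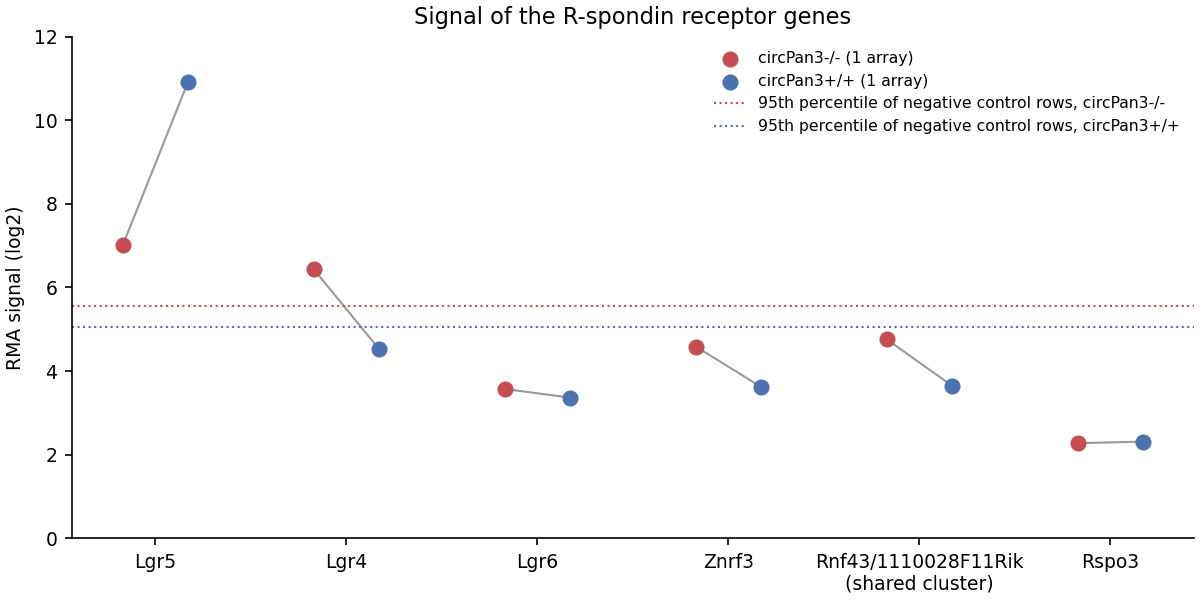
RMA signal (log2) of each gene on the circPan3-/- array (red, left) and the circPan3+/+ array (blue, right), 1 array each, with dotted lines at the 95th percentile of negative control rows on each array. Lgr5 lies above both lines on both arrays, Lgr4 crosses its line on the circPan3-/- array alone, and the others lie under the lines.

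RefSeq promoter sequences (250 bases before to 50 after the annotated start, GRCm38.p6) matched 3 of the 6 genes, and those of Lgr4 and Lgr6 are shown because these receptor genes are the paralogs set against Lgr5. Capitals mark CCAAT and GGGCGG on either strand, which are common promoter elements.
Lgr4 promoter, chr2:109917397-109917696, plus strand: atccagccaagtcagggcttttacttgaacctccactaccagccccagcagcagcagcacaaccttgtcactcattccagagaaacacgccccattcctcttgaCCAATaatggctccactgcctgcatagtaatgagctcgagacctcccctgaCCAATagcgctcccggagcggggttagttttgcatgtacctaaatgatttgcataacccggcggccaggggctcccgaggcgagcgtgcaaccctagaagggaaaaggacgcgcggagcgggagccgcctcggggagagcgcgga
Lgr6 promoter, chr1:135105227-135105526, minus strand: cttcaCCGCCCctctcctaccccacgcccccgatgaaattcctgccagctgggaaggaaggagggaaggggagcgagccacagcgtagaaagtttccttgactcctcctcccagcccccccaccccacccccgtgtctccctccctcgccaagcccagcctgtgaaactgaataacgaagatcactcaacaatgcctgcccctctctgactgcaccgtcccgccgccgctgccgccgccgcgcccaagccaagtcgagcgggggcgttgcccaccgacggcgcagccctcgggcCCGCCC
The Lgr4 window held 2 matches to CCAAT and 0 to GGGCGG, and the Lgr6 window 0 and 2. Of 32851 promoter windows of the same length, 37.4% held CCAAT and 35.7% held GGGCGG. The letters CTTTG, the core bound by the TCF and LEF factors of the Wnt pathway, were searched on both strands and stood in neither window, against 53.9% of all windows. These are descriptions of the letters and say nothing of the factors.

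The ubiquitin ligases stood between these extremes. Znrf3 had 4.58 in circPan3-/- cells and 3.62 in circPan3+/+ cells, a difference of 0.96, just under 2-fold and the value closest to that threshold. The shared Rnf43 and 1110028F11Rik cluster had 4.76 in circPan3-/- cells and 3.65 in circPan3+/+ cells, a difference of 1.10, just past 2-fold. Both clusters were higher on the circPan3-/- array, but all 4 values lay under the control limits, so no fold is given. Among named genes at the same levels the 95th percentiles of the difference as deposited were 1.19, beside 0.96 for Znrf3, and 1.21, beside 1.10 for the shared cluster. Relative to the median of named genes the differences were 0.60 for Znrf3 and 0.75 for the shared cluster. The circPan3+/+ values of Znrf3 and of the shared cluster stood in 49 and 39 rows.

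Rspo3, the stromal ligand gene, had 2.27 in circPan3-/- cells and 2.31 in circPan3+/+ cells, a difference of -0.04. Its mean level was below the median of all rows, so Rspo3 did not pass the filter on low values. On the circPan3-/- array 49.6% of negative control rows had a lower value, and on the circPan3+/+ array 58.2%. The ligand signal on both arrays thus lay near the middle of the negative controls.

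The second step set the difference of Lgr5 against that of each partner within the same 2 arrays, so that a shift common to all genes cancels. The difference of Lgr5 minus that of Lgr4 was -5.79, and minus that of Lgr6 it was -4.09. Against Znrf3 this contrast was -4.85, and against the shared Rnf43 and 1110028F11Rik cluster -4.99. Under centring, loess and quantile normalization the contrast with Lgr4 stayed between -5.90 and -5.44, that with Lgr6 between -4.44 and -3.81, and that with Znrf3 between -5.09 and -4.53. These contrasts restate the difference of Lgr5 that chose the genes, centring leaves them as they are by construction, and nothing is read from them. Lgr6, Znrf3 and the shared cluster entered with values under the limits on both arrays and Lgr4 with 1 such value, so the contrasts describe deposited values and are not measured folds. Lgr5 was past 2-fold downwards and Lgr4 past 2-fold upwards under all 3 as well. The share of all named genes past 2-fold upwards was 3.86% after centring, 3.71% after loess and 4.31% after quantile normalization. Downwards it was 4.94% after centring, 4.64% after loess and 4.43% after quantile normalization. With dim values set to their control limit, 3.71% of named genes were past 2-fold upwards and 0.528% downwards, and Lgr4 and Lgr5 were still among them.

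**Figure D2:**
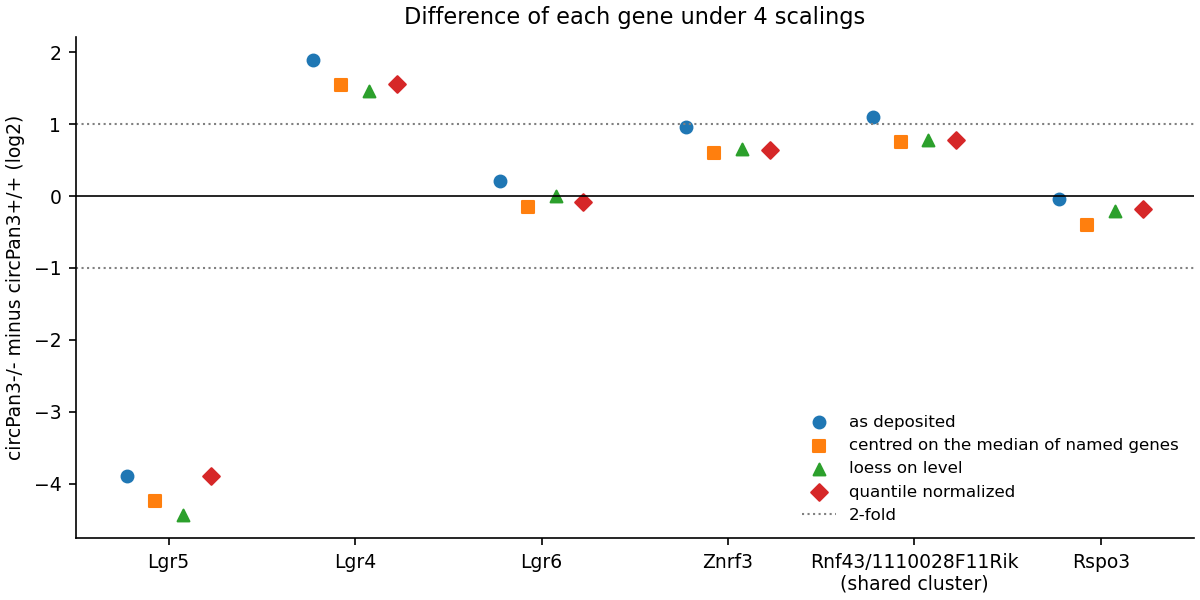
Difference of each gene, circPan3-/- minus circPan3+/+ (log2), as deposited and under 3 other scalings, with dotted lines at 2-fold. Lgr5 stays between -4.44 and -3.89 and Lgr4 between 1.46 and 1.90, while Lgr6 falls on either side of 0.

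**Figure D3:**
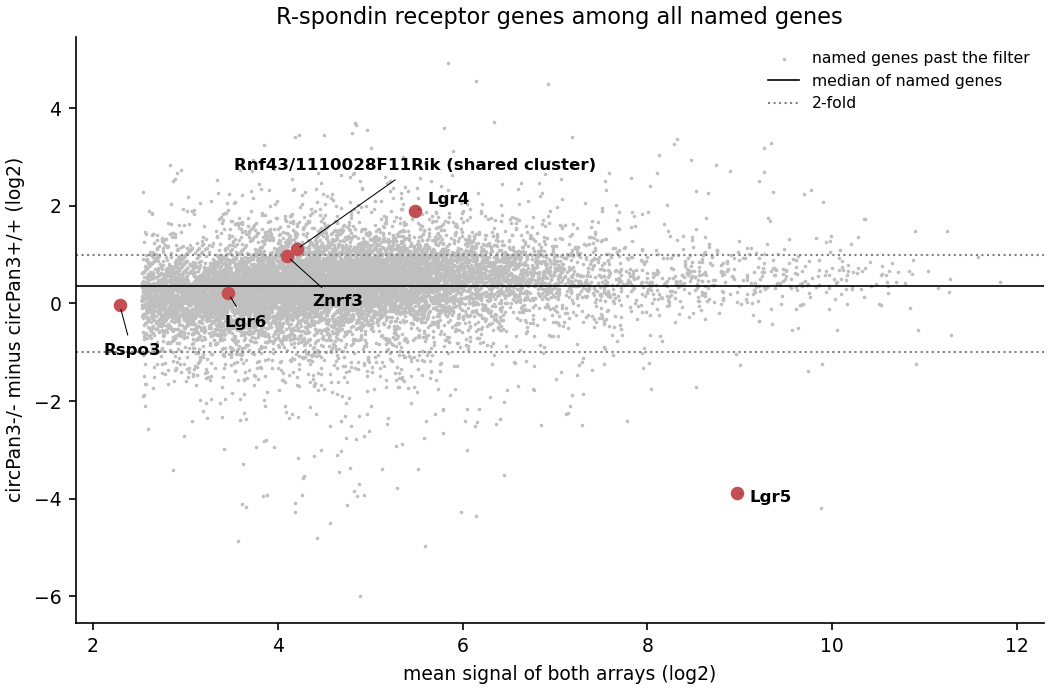
Difference (circPan3-/- minus circPan3+/+, log2) against mean signal of both arrays (log2) for 14597 named genes (grey) and the R-spondin receptor genes (red, labelled). Lgr5, which was chosen for its difference, lies at -3.89 and Lgr4 at 1.90. The others lie between these, with values under the control limits on both arrays, and nothing is read from the places.

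By Euclidean distance over both log2 values, the genes most like Lgr5 across the 2 arrays were Il13ra1, Sprr2b, Ctsb, Clca4a and Vim. Il13ra1, a subunit gene of the interleukin 13 receptor, was nearest at a distance of 1.30, with 7.78 in circPan3-/- cells and 11.97 in circPan3+/+ cells. The other 4 were 1.66 to 2.00 away and had differences from -2.41 for Clca4a to -1.27 for the cathepsin gene Ctsb. The likeness rests on 1 array per genotype.

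The chromosomal neighbours of Lgr5 on chromosome 10 were the 2 protein-coding genes on either side in the RefSeq table. Zfc3h1 had a difference of 0.08, Thap2 0.82 and A930009A15Rik 0.26, each between values under the limits, so a difference in these could not be measured. Tspan8, a tetraspanin gene and the one neighbour of Lgr5 above the limits on both arrays, was at least 2-fold higher. It had 7.97 in circPan3-/- cells and 6.75 in circPan3+/+ cells. Around the 6 genes 20 of 24 such neighbours were measured, with differences from -0.85 to 1.22 and a median of 0.40. Of these 20, 16 passed the filter. Among the 20, Tspan8 was the 1 gene at least 2-fold higher and 0 were lower by that much, beside 9.7% and 2.73% of all named genes past the filter. Of the neighbours of Lgr4 that passed the filter, Lin7c at 0.99 lay above the limits and Ccdc34 at 0.87 between values under them. As deposited both stood below the 1.90 of Lgr4, whose circPan3+/+ value was itself under the limit.

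Other genes of the R-spondin and Wnt pathway were then listed by role. Over 91 genes of these lists past the filter, each counted once, 15 were at least 2-fold higher in circPan3-/- cells and 0 were lower by that much, with a median difference of 0.47 against 0.36 for all named genes. That is beside backgrounds of 9.7% higher and 2.73% lower. Relative to the median of named genes 6 were at least 2-fold higher, beside 3.86% of all named genes. After loess on level 4 were, beside 3.71%. Where a dim value was replaced by its control limit, 10 were at least 2-fold higher, beside 3.71% of all named genes. In 62 of the 91 the signal was under the limit on each array.

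Among the other ligands, Rspo1 had a difference of 0.47 and Rspo4 of 0.45, with all values under the limits, and Rspo2 did not pass the filter. Wnt ligand genes had 17 of 19 past the filter and 0 at least 2-fold apart, beside 9.7% of all named genes higher and 2.73% lower. They ran from Wnt9b at -0.23 to Wnt3, the ligand gene of Paneth cells, at 0.79. All 17 lay under the limits on both arrays. Secreted and surface inhibitors had 12 of 17 past the filter and 0 apart, beside the same shares. They ran from Sostdc1 at -0.30 to Sost at 0.92, again all under the limits.

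Among proteins that meet R-spondins or LGR5 at the membrane, Sdc4, a syndecan gene, was at least 2-fold higher, with 6.53 in circPan3-/- cells and 5.42 in circPan3+/+ cells. The lowest of these 5 was the adhesion receptor gene Adgrg1 at 0.23, with a circPan3-/- value under the limit, so no fold is given. Other ligases are built like RNF43 and ZNRF3, with a protease-associated domain, a membrane span and a RING domain. Of these, 8 of 10 passed the filter and 2 were at least 2-fold higher, beside 9.7% of all named genes. Rnf128 had 6.86 in circPan3-/- cells and 5.76 in circPan3+/+ cells. Znrf4 was higher by 1.34 between values under the limits, and Rnf130 was lowest at 0.09, also between such values. After centring, Sdc4, Rnf128 and Znrf4 were all under 2-fold, and after loess Znrf4 was at 1.08 and the other two were under 2-fold. The other leucine-rich repeat hormone receptor genes measured, Rxfp1, Rxfp2, Fshr and Tshr, did not pass the filter, with signals up to 1.58 in circPan3-/- cells and up to 1.94 in circPan3+/+ cells.

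Wnt receptor genes, whose products the ligases remove, had a median of 0.57 over 13 genes past the filter. Of these, 4 were at least 2-fold higher and 0 lower, beside 9.7% and 2.73% of all named genes. Fzd5, a Frizzled gene of the intestinal epithelium, had 6.76 in circPan3-/- cells and 5.37 in circPan3+/+ cells, a difference of 1.38. Lrp6, the Wnt co-receptor gene, had 6.11 in circPan3-/- cells and 5.09 in circPan3+/+ cells, a difference of 1.02. Ryk, a Wnt-binding receptor gene, had 6.21 in circPan3-/- cells and 5.01 in circPan3+/+ cells, at least 2.22-fold higher against the limit. Fzd6 differed by 1.14 between values under the limits, and Fzd1 was lowest at -0.45, also between such values. Relative to the median of named genes Fzd5 was at 1.02 and the other 3 were under 2-fold, and after loess 0 of the 13 were past 2-fold.

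Intracellular transducers had a median of 0.46 over 24 genes, with 3 at least 2-fold higher. The kinase gene Csnk1a1, part of the destruction complex of beta-catenin, had 7.20 in circPan3-/- cells and 5.72 in circPan3+/+ cells, and Csnk1g3 differed by 1.05. Bcl9, a co-activator gene, differed by 1.02 between values under the limits, and Lef1 was lowest at -0.55, also between such values. The 3 of 24 stand beside 9.7% of all named genes, and 1 was left after centring and 0 after loess. Among 13 target and feedback genes the median was 0.66, and 5 were at least 2-fold higher, beside 9.7% of all named genes. Axin2, a feedback inhibitor gene switched on by Wnt signalling, had 5.97 in circPan3-/- cells and 4.25 in circPan3+/+ cells, at least 1.88-fold higher against the limit. Ccnd2 differed by 1.64, Sox9 by 1.37 and Mmp7 by 1.89. Ephb3 differed by 1.00 between values under the limits, and by 0.64 after centring. Of the 5, 4 were left after centring, beside 3.86% of all named genes. In the list 3 genes were past 2-fold upwards after loess, beside 3.71% of all named genes. With dim values set to their control limit 3 were, again beside 3.71%. None of the 13 was at least 2-fold lower as deposited (0 of 13, beside 2.73% of all named genes), and 7 lay under the limits on both arrays, where a lower level could not be seen.

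**Figure D4:**
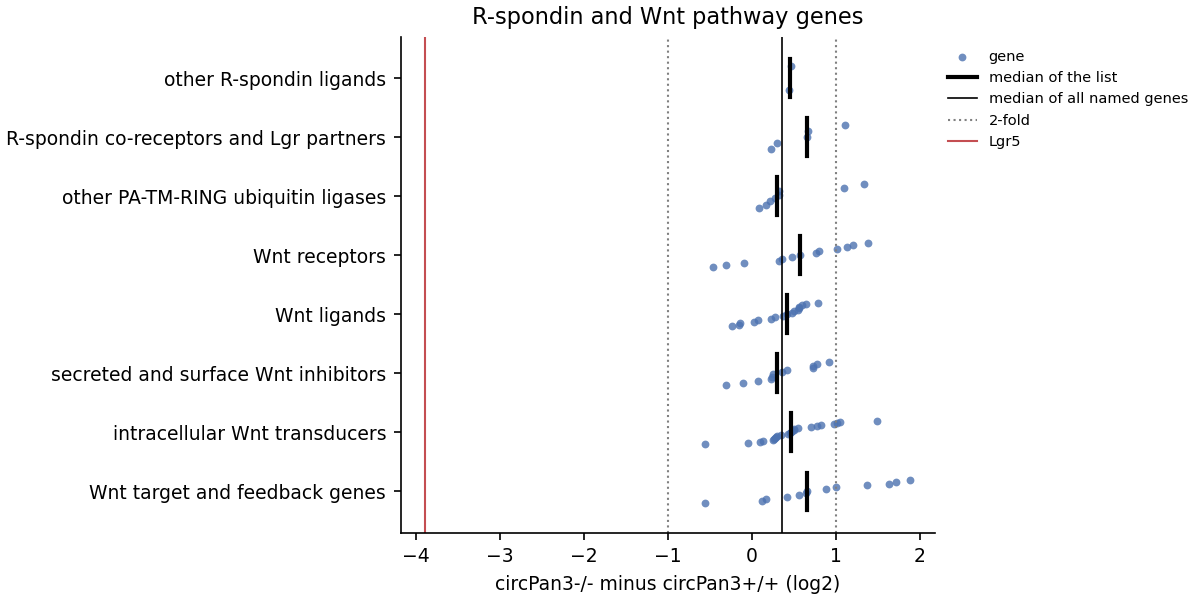
Difference of each pathway gene past the filter (dots, circPan3-/- minus circPan3+/+, log2) by role, with the list median (thick bar), the median of all named genes (thin line), 2-fold (dotted) and Lgr5 (red line). The lowest gene shown is Lef1 at -0.55, while Lgr5 stands at -3.89.

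Markers of the labelled cell type and of other cells are given from the same arrays, beside 9.7% of all named genes at least 2-fold higher and 2.73% lower as deposited. With dim values set to their control limit, called bounds here, these shares were 3.71% and 0.528%. They were 3.86% and 4.94% after centring, and 3.71% and 4.64% after loess. Of 18 crypt base stem cell markers past the filter, 10 stood at least 2-fold higher in circPan3-/- cells and 3 lower by that much, with a median of 1.34. After centring 8 were higher and 3 lower, after loess 7 were higher and 3 lower, and with bounds 3 were higher and 1 lower. In all, 10 of the 18 lay under the limits on both arrays. Olfm4, a secreted marker of these cells, had 10.28 in circPan3-/- cells and 11.53 in circPan3+/+ cells, the nearest in direction to Lgr5 with both values above the limits, and Slc12a2 was highest at 2.93. Paneth cell markers were at least 2-fold higher in 6 of 6 (6 with bounds, 6 after centring, 5 after loess), from Lyz1 at 1.49 to Ang4 at 3.37. Goblet cell markers were so in 8 of 8 (7 with bounds, 6 after centring, 5 after loess), from Zg16 at 1.14 to Clca1 at 3.27. Enteroendocrine and tuft cell markers were so in 7 of 9 (3 with bounds, 6 after centring, 5 after loess), from Tac1 at 0.60 to Rgs13 at 2.84. Of the 9, 5 lay under the limits on both arrays, Tac1 and Rgs13 included. Enterocyte markers were at least 2-fold lower in 5 of 10 (5 with bounds, 5 after centring, 7 after loess) and higher in 0, from Apoa4 at -2.50 to Vil1 at 0.32. Levels of the stem cell markers ran from 3.61 to 10.28 in circPan3-/- cells and from 1.61 to 11.53 in circPan3+/+ cells, and those of the goblet cell markers from 5.62 to 10.16 in circPan3-/- cells and from 4.42 to 8.55 in circPan3+/+ cells. Levels of the enterocyte markers ran from 4.08 to 9.38 in circPan3-/- cells and from 3.96 to 9.88 in circPan3+/+ cells. Axin2, Sox9, Ascl2 and Tnfrsf19 stand in both the Wnt target list and the stem cell list. Mmp7 stands in the Wnt target and Paneth lists, so the counts of these lists overlap.

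Markers of cells outside the epithelium, which the sort on GFP is meant to remove, were read in the same way, and the source of their signal was not tested. Myeloid markers were at least 2-fold lower in 10 of 12 as deposited but in 3 with bounds. They ran from S100a8 at -3.93, which is at least 1.23-fold lower against the limit, to Lyz2 at -0.03, the 1 of the 12 above the limit on both arrays, with levels from 1.92 to 10.51 in circPan3-/- cells and from 5.67 to 10.55 in circPan3+/+ cells. Mesenchymal markers, from the cells that make R-spondins, were at least 2-fold lower in 4 of 15 (2 with bounds) and higher in 2 (1 with bounds), with 10 of the 15 under the limits on both arrays. They ran from Sparc at -1.78 to Acta2 at 1.49. The Rspo3 signal lay near the middle of the negative controls, so its difference is not set beside them. Levels of the mesenchymal markers ran from 2.36 to 8.90 in circPan3-/- cells and from 2.83 to 8.91 in circPan3+/+ cells. Blood and lymphatic endothelial markers were at least 2-fold lower in 3 of 10 as deposited, 6 after centring, 5 after loess and 1 with bounds. They ran from Emcn at -2.88, with a circPan3-/- value under the limit, to Tek at 0.59, between values under the limits. T cell and innate lymphoid markers were at least 2-fold lower in 3 of 7 (1 with bounds), and 5 of the 7 lay under the limits on both arrays. The extremes, Klrd1 at -2.05 and Cd2 at 0.32, were among these 5. The part of these other cells in the differences of Lgr5 and Lgr4 was not tested. Pan3, the host gene, had 5.64 in circPan3-/- cells and 4.84 in circPan3+/+ cells. The circPan3+/+ value lay under the control limit, so no fold is given. The Pan3 row is named for the gene and does not check the loss of the circle.

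**Figure D5:**
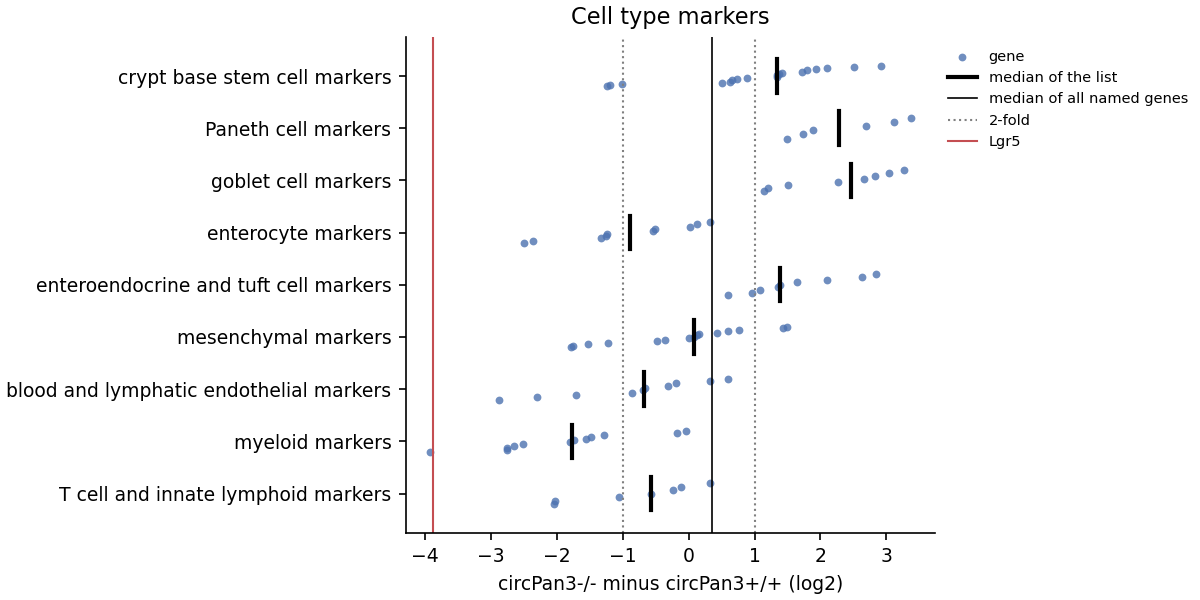
Difference of each marker gene past the filter (dots, circPan3-/- minus circPan3+/+, log2) by cell type, drawn as for the pathway genes. Goblet and Paneth markers all lie at or above 1.14, and myeloid markers lie at or below -0.03, most of them with circPan3-/- values under the control limit.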

How the data were processed

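Total RNA of sorted cells was profiled on 2 arrays, 1 per genotype, grouped by the genotype in the labels. The deposited values are log2 signals per transcript cluster, made by the authors with Affymetrix Power Tools and RMA per the submitters' processing notes. No version or genome build is stated in the labels, and the log2 base was taken from the values, which ran from -0.18 to 13.07. RMA subtracts no background by base content, so low values do not separate expression from background. The number of arrays limits the precision.

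The 72688 rows were named through the platform annotation and RefSeq symbols (GRCm38.p6): 31234 had 1 gene, 1516 several and 33206 clusters none, and the other 6732 were control rows. The brightest row stood for a gene. Named genes exclude predicted models and noncoding RNAs, and those with a mean level of at least 2.53 passed the filter. There was no test. Genes at least 2-fold apart were counted. Genes named in the text were the 6 genes, the extremes and the 2-fold members of each pathway list, the extremes of each marker list, the 5 genes nearest to Lgr5, chromosomal neighbours and Pan3. Clca4b was named after its value was seen. The members and lists were chosen with earlier results of these data known. Alternatives were centring, loess (span 0.3), quantile normalization, the mean of a gene's rows, other filters, a 1.5-fold threshold and other control limits. Functions were tested on simulated data. Calculations used Python 3.11.15, numpy 2.4.6 and pandas 2.3.3.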

Additional observations from a re-analysis of the deposited data

How the results depend on the processing

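Under centring, loess on level and quantile normalization the differences of the 5 genes moved by less than 1.5-fold. So did the contrasts of Lgr5 with Lgr4, Lgr6 and Znrf3, which centring cannot move. This tolerance was used because there is no spread between replicates. Each of the 5 genes had 1 row, so the mean over a gene's rows returned the same values by construction. Lgr6, which was not 2-fold apart, changed sign under centring and quantile normalization. Lgr5 was the 1 gene at least 2-fold lower under every alternative run. The number of genes at least 2-fold higher, 1 as deposited, was 2 with a threshold of 1.5-fold, which takes in Znrf3. It was 0 with the 99th percentile of negative controls as the limit, which lies above both values of Lgr4 and leaves Lgr5 at least 6.81-fold lower. The number of pathway genes at least 2-fold higher, 15 as deposited, was 6 after centring, 4 after loess and 7 after quantile normalization. The shares of all named genes were 9.7% as deposited, 3.86% after centring, 3.71% after loess and 4.31% after quantile normalization. The number was 32 with a threshold of 1.5-fold and 8 where only genes with values in no other row were kept. The share of all named genes is not given for either setting, so nothing is read from the 32 and the 8. Keeping only values in no other row was an alternative chosen after seeing the data, as were bounds for these lists. No paired analysis was possible because each genotype has 1 array. The signal over background limits Lgr6, Znrf3, Rspo3 and the shared Rnf43 and 1110028F11Rik cluster, whose values lay below the limit of each array.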
